A study of Mus musculus with 5 samples.

Results

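The genes described here build and run the apparatus that separates chromosomes at cell division. They comprise 49 genes of the centromere, the kinetochore, the spindle assembly checkpoint, the chromosomal passenger complex, the spindle and the mitotic cyclins, chosen as a list of exact gene symbols. All 49 were among the 55291 symbols counted, and all 49 were among the 17062 genes that passed the filter on low counts. RNA had been sequenced from mouse bone marrow cells labelled as monocytes, as 3 samples of wild type, here replicates 1, 2 and 3, and 2 samples labelled Tet2 mutant, here replicates 2 and 3 (titled HR2 and HR3). Tet2 encodes an enzyme that oxidises methylated cytosine in DNA. The mutant allele, the strain, age and sex of the mice, the isolation of the cells and the meaning of HR are, like the use of separate animals, left unstated in the labels. As a result, p-values measure only how these samples spread, and part of that spread may be technical.

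Chromosomes attach to spindle microtubules at the centromere, which is marked by nucleosomes that hold the histone variant CENP-A. The constitutive centromere-associated network (CCAN) sits on this chromatin throughout the cycle, and the outer kinetochore assembles on it in mitosis and binds microtubules. The checkpoint delays anaphase until every kinetochore is attached, after which CDC20 and the anaphase-promoting complex (APC/C) destroy cyclin B. Most of these genes are transcribed late in the cell cycle, under repressor and activator complexes that use CHR and CCAAT elements near the start site. Mature monocytes and macrophages divide little, while their marrow precursors divide often.

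Library totals ranged from 53789308 to 72414875 counts in the wild type and were 17459808 and 60508381 in Tet2-mutant replicates 2 and 3. Tet2 itself stood at 13.9, 11.3 and 12.0 CPM (counts per 1000000 counts in the library) in wild-type replicates 1 to 3, and at 3.84 and 13.9 CPM in the mutant replicates, so replicate 2 lay below the wild type and replicate 3 level with its highest library. The site of the mutation is not given, and a count over the whole gene does not check it. Tet2-mutant replicate 2 stood apart, since it held both Xist (19.8 CPM) and Y-linked transcripts (28.4 CPM summed over 4 genes). Wild-type replicates 1 and 2 held Y-linked transcripts at 199 and 225 CPM with Xist at 0.219 and 0.207 CPM, and wild-type replicate 3 and Tet2-mutant replicate 3 showed Xist at 36.8 and 18.9 CPM with Y-linked sums of 0.781 and 3.24 CPM. Lyz2, a gene of the monocyte list used below, was abundant in every library, but so were the neutrophil gene Ngp and the globin gene Hbb-bs. In such bulk samples fewer cells of a type and less RNA per cell cannot be told apart.

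The 49 genes summed to 6832, 8630.1 and 8833 CPM in the wild-type libraries, then to 4315 CPM for Tet2-mutant replicate 2 and 1674 CPM for replicate 3. The mutant sums were 53.3% and 20.7% of the wild-type mean, below every wild-type library. Gene by gene, both mutant libraries lay below all 3 wild-type libraries for 43 of the 49 genes, against 46.8% of all genes tested. The exceptions were Cenpk, Cenpm, Mis12, Zwint, Bub3 and Ube2c. With library sizes adjusted by TMM (trimmed mean of M values, which corrects for differing RNA composition), the count was 27 of 49 against 33.3% of genes.

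**Figure D1:**
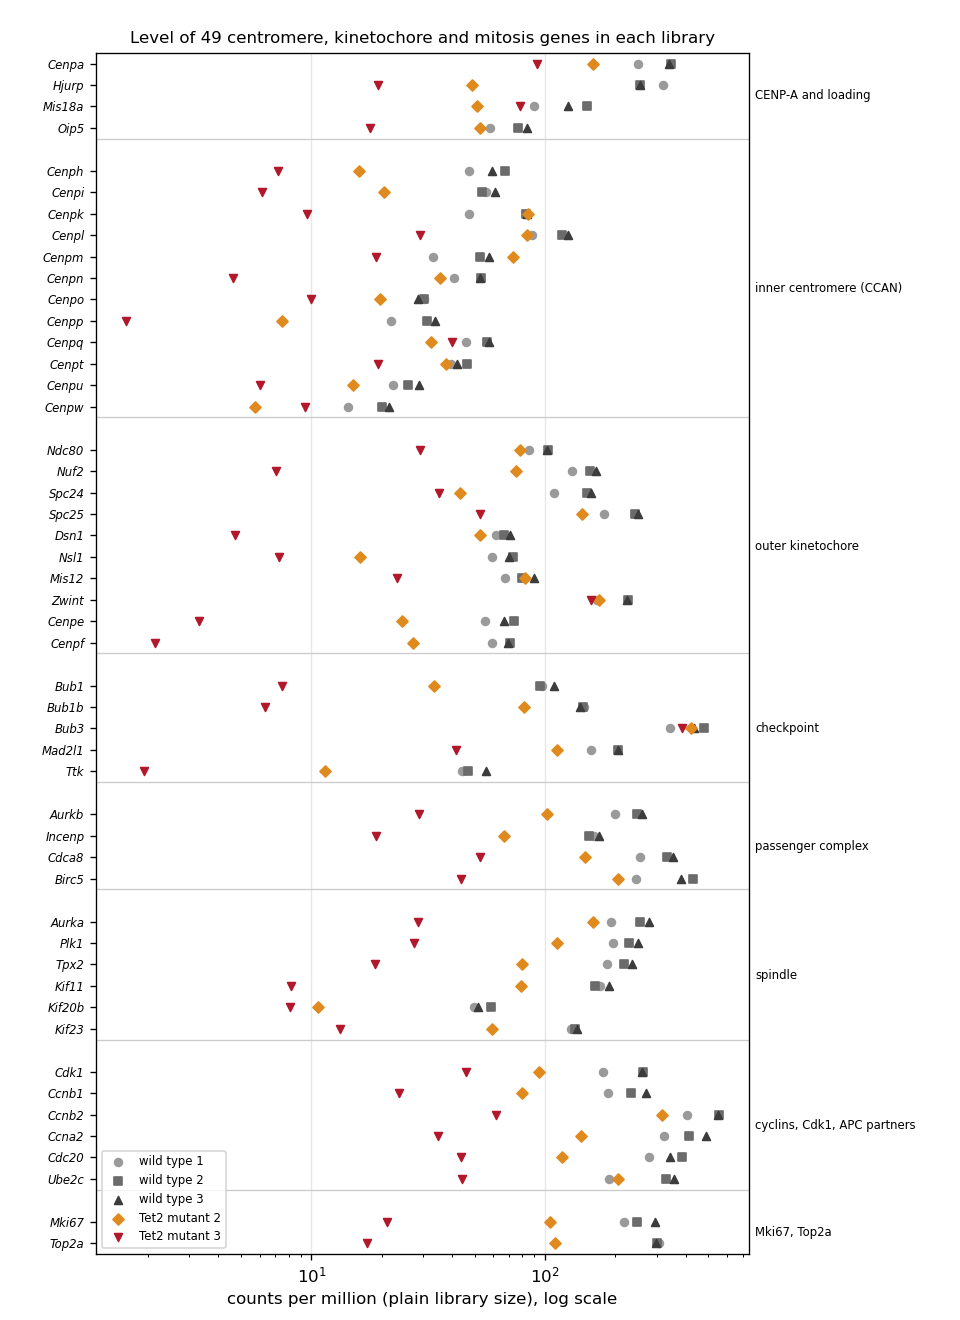
Level of each of the 49 genes in each of the 5 libraries, in CPM of the plain library size on a log axis, grouped by complex. Tet2-mutant replicate 3 lies below every wild-type library for 48 genes, with Bub3 inside the wild-type range.

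Promoter sequences of 6 members are shown because they carry the motifs that these genes share, or lack them, and because they span the range of response. They come from RefSeq (GRCm38.p6), run from 250 bases before the start site to 30 bases after it, and are written on the gene's strand, 5′ to 3′. Hjurp lies at chr1:88277550-88277829 (minus strand), Kif20b at chr19:34922108-34922387 (plus), Cenpf at chr1:189688057-189688336 (minus), Ccnb2 at chr9:70421525-70421804 (minus), Dsn1 at chr2:157007046-157007325 (minus) and Bub3 at chr7:131560120-131560399 (plus). Capitals mark TTTGAA (the CHR hexamer), CCAAT (the NF-Y box) and GCGGGAA (an E2F-type site), each searched on both strands together with the CHR variant TTCGAA.
Hjurp: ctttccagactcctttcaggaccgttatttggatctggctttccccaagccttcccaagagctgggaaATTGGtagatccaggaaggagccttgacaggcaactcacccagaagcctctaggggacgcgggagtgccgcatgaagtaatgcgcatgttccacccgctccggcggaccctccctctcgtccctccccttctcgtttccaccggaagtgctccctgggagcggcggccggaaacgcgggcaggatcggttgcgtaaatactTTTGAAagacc
Kif20b: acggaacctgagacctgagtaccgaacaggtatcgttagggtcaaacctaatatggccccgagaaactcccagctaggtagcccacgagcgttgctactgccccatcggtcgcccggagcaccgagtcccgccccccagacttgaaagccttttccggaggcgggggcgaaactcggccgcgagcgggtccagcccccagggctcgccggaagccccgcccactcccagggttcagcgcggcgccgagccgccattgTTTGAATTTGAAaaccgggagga
Cenpf: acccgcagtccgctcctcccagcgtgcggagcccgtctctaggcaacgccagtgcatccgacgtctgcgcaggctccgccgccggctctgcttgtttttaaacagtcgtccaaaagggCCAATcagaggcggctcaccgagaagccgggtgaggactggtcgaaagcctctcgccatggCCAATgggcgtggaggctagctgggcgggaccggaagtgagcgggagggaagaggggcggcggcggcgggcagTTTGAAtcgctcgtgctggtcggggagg
Ccnb2: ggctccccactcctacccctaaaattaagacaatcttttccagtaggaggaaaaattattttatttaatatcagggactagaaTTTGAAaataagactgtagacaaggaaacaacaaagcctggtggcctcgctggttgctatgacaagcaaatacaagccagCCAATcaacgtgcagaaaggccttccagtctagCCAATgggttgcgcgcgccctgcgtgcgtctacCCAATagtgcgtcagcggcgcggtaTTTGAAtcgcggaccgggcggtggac
Dsn1: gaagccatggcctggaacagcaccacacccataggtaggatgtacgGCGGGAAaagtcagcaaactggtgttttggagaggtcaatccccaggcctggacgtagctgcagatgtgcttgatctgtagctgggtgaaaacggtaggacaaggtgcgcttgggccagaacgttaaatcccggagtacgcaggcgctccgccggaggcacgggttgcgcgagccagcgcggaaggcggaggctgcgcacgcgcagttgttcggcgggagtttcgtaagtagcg
Bub3: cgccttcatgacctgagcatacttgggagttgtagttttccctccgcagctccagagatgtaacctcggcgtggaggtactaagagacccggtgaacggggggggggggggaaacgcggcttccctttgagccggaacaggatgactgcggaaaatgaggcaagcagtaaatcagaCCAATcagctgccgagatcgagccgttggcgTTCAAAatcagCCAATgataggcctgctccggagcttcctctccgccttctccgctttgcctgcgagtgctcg

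In the Ccnb2 promoter CCAAT stood at -87, -54 and -21 and TTTGAA at -167 and 5, counted from the first transcribed base as 1. The Kif20b promoter held TTTGAA at 8 and again at 14, the Cenpf promoter at 3 and the Hjurp promoter at 20. In Bub3, shown from the first of its RefSeq start sites, the reverse complement TTCAAA stood at -43, between CCAAT boxes at -74 and -32. The Dsn1 window had neither CHR hexamer and no NF-Y box, but held GCGGGAA at -204.

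The RefSeq table held promoters for 43 of the 49 members; Spc24, Nsl1, Incenp, Aurkb, Tpx2 and Ccna2 had no entry. TTTGAA occurred in 24 of the 43 (55.8%), against 17.9% of 32851 promoters of the same length. TTCGAA occurred in 5 (11.6%, against 1.56%) and CCAAT in 33 (76.7%, against 37.4%). A CCAAT together with either CHR hexamer was found in 24 members (55.8%, against 7.52%). Members were counted once per gene, while these background shares count single promoters. Over 11574 tested genes with a promoter, the shares were 15.4% for TTTGAA, 2.41% for TTCGAA, 42.4% for CCAAT and 7.19% for the combination. The hexamers clustered near the start site: in 23 of 43 members (53.5%) their first base lay within 50 bases of it, against 5.31% of all promoters. By role, all 5 spindle genes with a promoter held TTTGAA, while only 3 of 12 CCAN genes did. GCGGGAA showed the other order, with 6 of its 7 occurrences among CCAN genes (Cenph, Cenpk, Cenpl, Cenpm, Cenpn and Cenpo) and the seventh in Dsn1. Members with and without a CHR hexamer had median log2 fold changes of -2.58 and -2.59 in Tet2-mutant replicate 3, and of -1.04 and -0.70 between genotypes. For CCAAT the medians with and without it were -2.64 and -2.09 in replicate 3, and -1.04 and -0.63 between genotypes. These differences were not tested. A match of letters is a description and not evidence of a bound site.

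**Figure D2:**
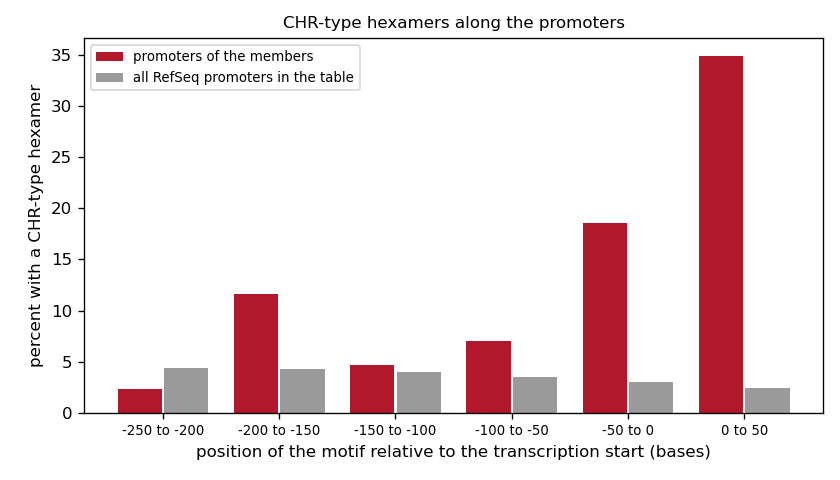
Percentage of promoters with a CHR hexamer (TTTGAA or TTCGAA, both strands) whose first base falls in each 50-base stretch around the start site, for the 43 members with a RefSeq promoter and for all 32851 promoters. In the 50 bases after the start the members reach 34.9% and all promoters 2.46%.

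Between genotypes, TMM-scaled counts were tested with edgeR's quasi-likelihood method. Of the 49 genes, 4 fell in the Tet2-mutant libraries at a Benjamini-Hochberg adjusted p under 0.05, against 4.43% of all genes tested, and 0 rose, against 10.6%. The 4 were Hjurp, Spc24, Nsl1 and Kif20b. At an unadjusted p under 0.05, 14 of the 49 were lower and 0 higher, against 18.6% of all genes lower. The median log2 fold change of the 49 was -1.07, beside -0.07 over all genes tested. The mutant libraries differed widely from each other, which left a broad SE for most members. With Tet2-mutant replicate 2 left out the members' median log2 fold change was -2.66, beside -0.30 over all genes. With Tet2-mutant replicate 3 left out it was -0.41, beside -0.49. Without wild-type replicates 1, 2 or 3 the test called 0, 1 and 1 (Hjurp in both cases), and with Xist class as a covariate it called 0, with 12 lower at an unadjusted p under 0.05.

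Each mutant library was therefore also set against the same 3 wild-type libraries. In these fits the spread comes from the wild type alone, the lone mutant library is assumed to vary like them, and the test compares libraries rather than genotypes. Tet2-mutant replicate 3 was lower for 43 of 49 genes, against 34.3% of all genes, and higher for 0, against 26.6%. The members' median log2 fold change there was -2.65, beside -0.22 over all genes. Tet2-mutant replicate 2 was lower for 10 of 49, against 18.4%, and higher for 2 (Cenpm and Mis12), against 22.1%. Its members' median was -0.40, beside -0.41 over all genes, so in this library the group lay where the typical gene lay. With plain library sizes the members' median log2 fold change was -1.08 in replicate 2, beside -1.09 over all genes. In replicate 3 it was -3.02, beside -0.59. Compared directly, replicate 3 was below replicate 2 for 42 of 49 genes, against 21.2% of all genes, with a median log2 difference of -2.13 beside -0.23.

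**Figure D3:**
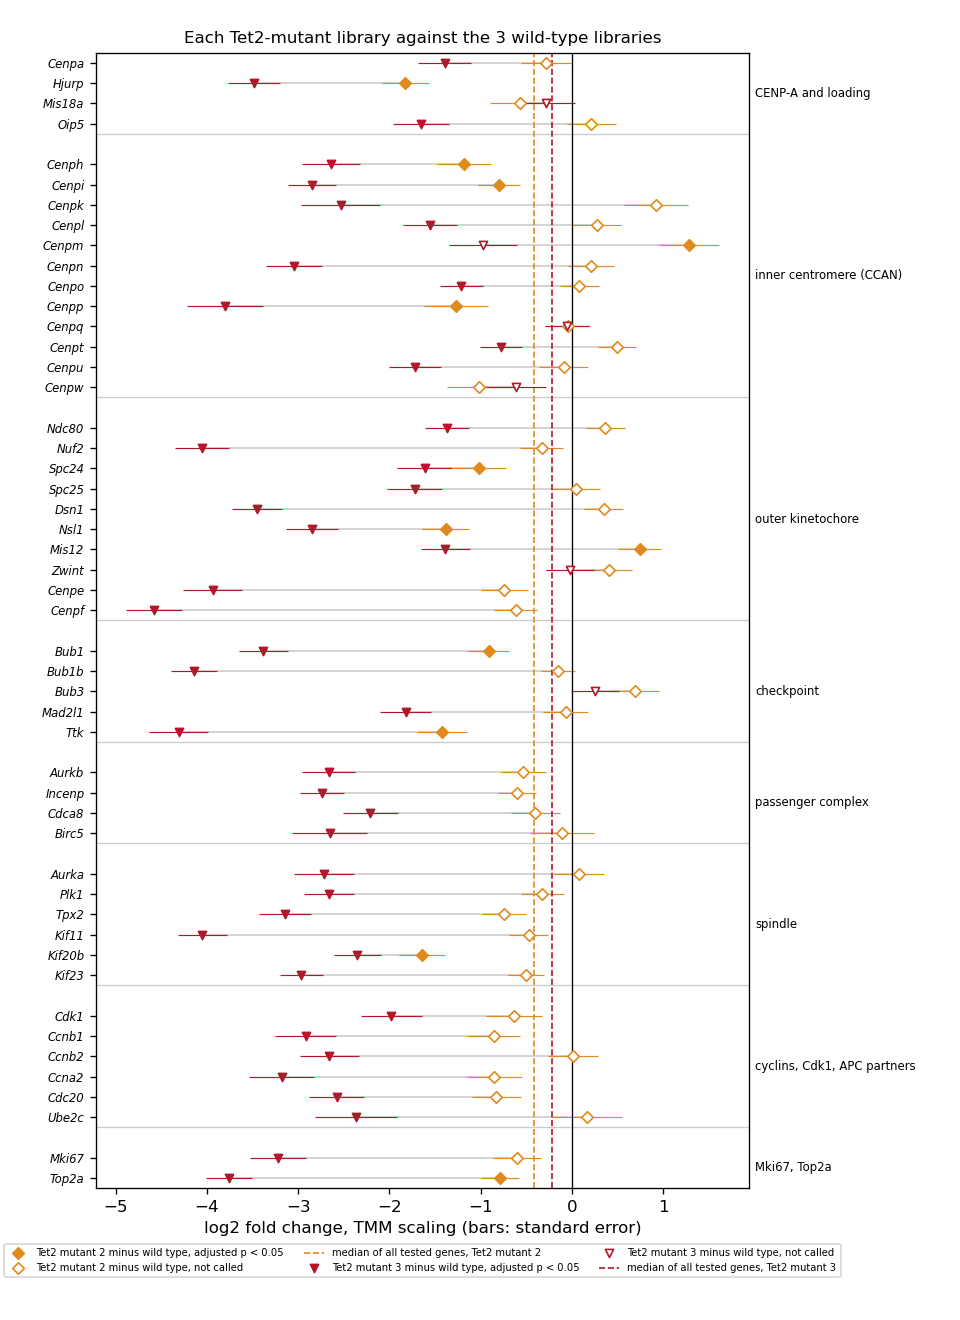
Log2 fold change of each gene in Tet2-mutant replicate 2 (diamonds) and replicate 3 (triangles) against the 3 wild-type libraries, with SE bars, filled where the adjusted p is under 0.05. Replicate 3 is shifted to a median of -2.65 while replicate 2 scatters around the median of all genes (dashed).

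At the centromere, Hjurp had the largest fall of the 4 called genes. It encodes the chaperone that brings new CENP-A to centromeres. Hjurp measured 321, 255 and 255 CPM in the wild type and 48.9 and 19.2 CPM in Tet2-mutant replicates 2 and 3. All wild-type values lay above both mutant values, with means of 277 ± 38.4 (SD, n = 3) and 34.0 ± 21 (SD, n = 2). The log2 fold change was -2.43 ± 0.50 (SE), with an adjusted p of 0.0262 by edgeR's quasi-likelihood test. It was called lower in each mutant library on its own, at -1.83 and -3.48. Cenpa, which encodes the histone variant itself, stood at 249.6, 346 and 339.5 CPM in the wild type and 160.4 and 92 CPM in the mutant replicates, without overlap. Its log2 fold change of -0.74 ± 0.37 was not called (edgeR adjusted p = 0.178), and only replicate 3 was called lower on its own, at -1.39. The MIS18 complex licenses the centromere for loading. Its member Oip5 measured 58.0 to 83.5 CPM in the wild type and 52.8 and 17.9 CPM in the mutant replicates. Mis18a measured 89.7 to 150.5 CPM in the wild type and 51.3 and 77.8 CPM in the mutant replicates, and was 1 of only 3 members, with Cenpq and Cenpw, that were not lower in replicate 3 than in replicate 2.

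None of the 12 CCAN genes was called between genotypes, and their median log2 fold change was -0.54. Cenph, of the CENP-H/I/K/M module that bridges CENP-A chromatin and the outer kinetochore, had the smallest p among them. It measured 47.2, 67.3 and 59.5 CPM in the wild type and 16 and 7.21 CPM in the mutant replicates. The groups did not overlap, and the log2 fold change was -1.75 ± 0.49 (SE; edgeR adjusted p = 0.0535). Cenpp, of the CENP-O/P/Q/U module, stood at 21.8, 31.1 and 33.6 CPM against 7.5 and 1.60 CPM, with a log2 fold change of -2.06 ± 0.76 (edgeR adjusted p = 0.0935). Its value in replicate 3 rested on 97 reads, the lowest count of any member. Both genes, and Cenpi, were called lower in each mutant library on its own.

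Within the same CENP-H/I/K/M module the libraries diverged. Cenpk measured 47.3, 82.9 and 83.9 CPM in the wild type, 84.8 CPM in mutant replicate 2 and 9.57 CPM in mutant replicate 3. Replicate 2 was at the top of the wild-type values and replicate 3 below all of them, with log2 fold changes of 0.92 (edgeR adjusted p = 0.0798) and -2.53 (edgeR adjusted p = 0.00454). Cenpm showed the same order, with 33.1, 52.5 and 57.6 CPM in the wild type, 72.9 CPM in replicate 2 and 18.8 CPM in replicate 3. It was called higher in replicate 2 (log2 1.28, edgeR adjusted p = 0.0259), a call lost with plain library size or upper-quartile factors, and was not called in replicate 3 (log2 -0.98, edgeR adjusted p = 0.0601). Replicate 3 was below replicate 2 by a log2 difference of -3.46 for Cenpk and -2.26 for Cenpm, both called. Cenpn, which binds the CENP-A nucleosome, kept 72.6% of its wild-type mean in replicate 2 and 9.41% in replicate 3. Its partner Cenpl kept 75.7% and 26.3%.

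The CENP-T/W pair, which recruits the NDC80 complex, and Cenpq had the smallest differences of the network in replicate 3. Cenpq stood at 46.0, 56.7 and 57.8 CPM in the wild type and 32.6 and 40.0 CPM in the mutant replicates. On the TMM scale its log2 fold changes were -0.04 in replicate 2 and -0.05 in replicate 3. Cenpw measured 14.3 to 21.4 CPM in the wild type and 5.73 and 9.42 CPM in the mutant replicates, and was called in neither library. Cenpt was called lower in replicate 3 (log2 -0.78) and not in replicate 2 (0.49). Cenpo and Cenpu were lower in replicate 3, at -1.21 and -1.72, and near 0 in replicate 2, at 0.08 and -0.09. Oip5, Cenpk, Cenpo, Cenpp, Cenpq, Cenpt, Cenpu, Mis12, Cdca8, Plk1, Ccna2, Cdc20 and Ube2c share exon sequence with an antisense gene in GENCODE M21, and Top2a with a gene on its own strand, so reads there cannot be assigned with certainty.

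Among the 10 outer kinetochore genes, Spc24 and Nsl1 fell. Spc24 encodes the subunit that, with SPC25, anchors the NDC80 complex to the kinetochore. It measured 109, 151 and 157 CPM in the wild type and 43.2 and 35.3 CPM in the mutant replicates. The mutant libraries lay close together and below all wild-type libraries, with a log2 fold change of -1.28 ± 0.31 (SE; edgeR adjusted p = 0.0407). Nsl1 belongs to the MIS12 complex, the platform on which NDC80 docks. It stood at 59.3, 73.0 and 70.3 CPM against 16.2 and 7.27 CPM, again without overlap, with a log2 fold change of -1.95 ± 0.48 (edgeR adjusted p = 0.0411). Leaving out any of the 3 wild-type libraries ended the call for both genes.

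Subunits of a single complex gave different values, and these differences between genes were not tested. In the MIS12 complex, replicate 3 was lower for Nsl1, Dsn1 and Mis12, at -2.85, -3.45 and -1.39. In replicate 2 only Nsl1 was lower (-1.38), while Dsn1 (0.35) was not called and Mis12 (0.74, edgeR adjusted p = 0.0482) was called higher, a call lost with plain library size, upper-quartile factors or the filter at 1 CPM. Mis12 itself stood at 67.4, 79.3 and 89.3 CPM in the wild type, 82.4 CPM in replicate 2 and 23.3 CPM in replicate 3. Replicate 2 thus lay inside the wild-type range and replicate 3 below it. In the NDC80 complex, Nuf2 had the lowest log2 fold change in replicate 3 (-4.05), with 7.06 CPM against 131 to 165 CPM in the wild type. Its direct partner Ndc80 measured 29.1 CPM there, from 85.7 to 103 CPM (log2 -1.37). Per kilobase of exon, the wild-type means of Ndc80, Nuf2, Spc24 and Spc25 were 14.9, 23.8, 54.1 and 70.3 CPM. In replicate 3 these levels were 4.48, 1.11, 13.7 and 16.6 CPM per kilobase, which puts Nuf2 below Ndc80.

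The fibrous corona genes Cenpf and Cenpe were among the lowest members in replicate 3. Cenpf encodes a large protein of the corona and nuclear envelope that accumulates in G2. It measured 59.0, 70.9 and 69.1 CPM in the wild type, 27.1 CPM in replicate 2 and 2.15 CPM in replicate 3. The last value is 3.24% of the wild-type mean, the smallest share of any member, with a log2 fold change of -4.58 (edgeR adjusted p = 0.000481). Cenpe, a kinesin that carries chromosomes to the spindle equator, measured 55.6 to 73.8 CPM in the wild type and 24.5 and 3.31 CPM in the mutant replicates. Neither was called between genotypes. Zwint, which links the outer kinetochore to the checkpoint, stood at 166, 227 and 223 CPM in the wild type and 171 and 158 CPM in the mutant replicates. Replicate 2 lay inside the wild-type range and replicate 3 just under it, and neither library was called.

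Among the 5 checkpoint genes, Bub3 stayed inside the wild-type CPM range in both mutant libraries, while others were among the lowest of all. Bub3, a scaffold that also acts outside mitosis, measured 343, 477 and 432 CPM in the wild type and 422 and 385 CPM in the mutant replicates. Both mutant values lay inside the wild-type range, at 101% and 92.3% of the mean. On the TMM scale its log2 fold changes were 0.69 in replicate 2 and 0.25 in replicate 3, neither called. Bub1b, its checkpoint partner BUBR1, measured 147, 145 and 141 CPM in the wild type, 81.3 CPM in replicate 2 and 6.35 CPM in replicate 3. Replicate 3 was at 4.40% of the wild-type mean, with a log2 fold change of -4.14 (edgeR adjusted p = 0.000364). Ttk, the kinase MPS1 that starts checkpoint signalling, stood at 44.2, 46.9 and 55.9 CPM against 11.5 and 1.92 CPM, and Bub1, the kinase that recruits BUB3 and BUBR1, at 96.9, 95.5 and 109 CPM against 33.4 and 7.47 CPM. Both were called lower in each mutant library on its own and not between genotypes, with log2 fold changes of -2.26 ± 0.78 and -1.68 ± 0.65 and edgeR adjusted p of 0.0832 and 0.106. Mad2l1, the checkpoint effector MAD2, measured 157 to 206 CPM in the wild type and 113 and 41.4 CPM in the mutant replicates. The checkpoint sum, to which Bub3 gave the most counts, was at 73.5% and 49.1% of its wild-type mean, while the median log2 fold change in replicate 3 was -3.38.

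The chromosomal passenger complex corrects faulty attachments and guides cytokinesis. In replicate 3 the kinase Aurkb and the subunits Incenp, Cdca8 (borealin) and Birc5 (survivin), all 4 subunits, were called lower, within a narrow span of log2 -2.74 to -2.21, and in replicate 2 none was called. Incenp measured 162, 153 and 171 CPM in the wild type and 66.7 and 18.8 CPM in the mutant replicates. Aurkb measured 199, 248 and 260.1 CPM in the wild type and 102 and 28.9 CPM in the mutant replicates. Neither overlapped between groups, and neither was called between genotypes, with log2 fold changes of -1.32 ± 0.56 and -1.24 ± 0.57 and edgeR adjusted p of 0.129 and 0.148.

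All 6 spindle genes were lower in replicate 3, and Kif20b fell between genotypes. Kif20b, a kinesin of the central spindle and midbody, stood at 49.8, 58.7 and 51.5 CPM in the wild type and 10.7 and 8.08 CPM in the mutant replicates. It had the smallest p of the 49, with a log2 fold change of -1.96 ± 0.37 (SE; edgeR adjusted p = 0.0203), and the difference between the mutant libraries was not called (log2 -0.71, edgeR adjusted p = 0.0889). The call was lost without any 1 of the wild-type libraries, and also with the replicate number as a block. Kif11, the motor that pushes spindle poles apart, measured 172, 164 and 188 CPM in the wild type and 78.9 and 8.20 CPM in the mutant replicates. The log2 fold change was -0.47 in replicate 2, not called, and -4.05 in replicate 3, called. Tpx2, Kif23, Plk1 and Aurka had log2 fold changes of -3.14, -2.97, -2.66 and -2.72 in replicate 3. Of these 4 genes, none was called in replicate 2, where values ran from -0.75 to 0.08.

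The cyclins, Cdk1 and the APC/C partners held the most abundant members. Per kilobase of exon the highest wild-type means were those of Ccnb2 (329 CPM), Cdc20 (179.5 CPM) and Ube2c (112 CPM), and the lowest were Cenpo (4.10), Cenpf (4.30) and Cenpw (4.41). Cdc20, the APC/C activator, measured 278, 385 and 343 CPM in the wild type and 118 and 43.5 CPM in the mutant replicates. Ccnb1, the main mitotic cyclin, measured 186, 233 and 271 CPM in the wild type and 79.6 and 23.6 CPM in the mutant replicates. The groups did not overlap for either gene, and neither was called, with log2 fold changes of -1.46 ± 0.50 and -1.55 ± 0.57 and edgeR adjusted p of 0.082 and 0.0946. Ccnb2 stood at 403, 556 and 552 CPM in the wild type, 317 CPM in replicate 2 and 61.9 CPM in replicate 3, with log2 fold changes of 0.01 and -2.66. Ccna2, the cyclin of S phase and G2, stood at 325 to 488 CPM against 142 and 34.9 CPM. Cdk1, the kinase that the cyclins activate, stood at 177 to 263 CPM against 94.4 and 45.9 CPM. Ube2c, the ubiquitin-conjugating enzyme of the APC/C, was the most variable member in the wild type, with 188, 328 and 357 CPM. Its 205 CPM in replicate 2 lay inside that range and its 43.9 CPM in replicate 3 below it. All 6 genes were called lower in replicate 3, and 0 in replicate 2. The pseudogenes Ccnb1-ps and Ccnb2-ps, which could share reads with the cyclin B genes, held at most 68 counts in any library.

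The general division markers followed the same order. Top2a, the topoisomerase that untangles chromosomes, varied least of the 49 across the wild type, at 308, 302 and 298 CPM, a coefficient of variation of 1.62%. It measured 110.0 and 17.3 CPM in the mutant replicates, below the wild type in each library by its own test (log2 -0.78 and -3.76). Mki67, which encodes the Ki-67 antigen, stood at 219, 248 and 295 CPM against 105 and 21.1 CPM, with log2 fold changes of -0.60 and -3.22. Only the latter was called.

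**Figure D4:**
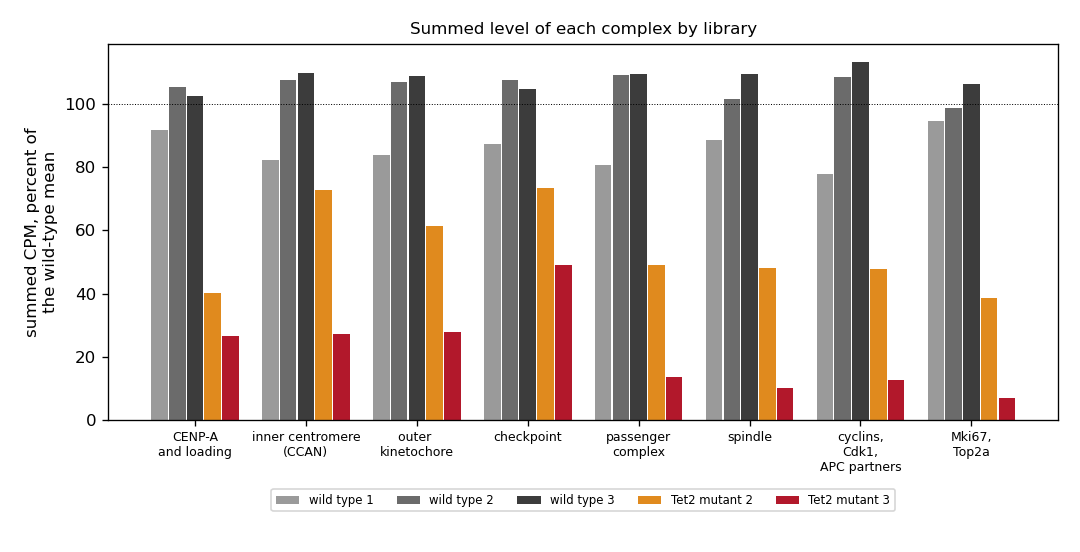
Summed CPM of each complex in the 5 libraries, as a percentage of the wild-type mean. In Tet2-mutant replicate 3 the sums run from 6.90% (Mki67 and Top2a) to 49.1% (checkpoint, most of it Bub3), and in replicate 2 from 38.6% to 73.5%.

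By complex, the inner centromere genes had the smallest median differences in replicate 3. The median log2 fold changes were -1.53 for CENP-A and its loading factors, -1.64 for the CCAN and -2.28 for the outer kinetochore. They were -2.66 for the passenger complex, -2.84 for the spindle, -2.62 for the cyclins and their partners and -3.38 for the checkpoint. These complexes have 4 to 12 members each, and differences between them were not tested. In replicate 3, 16 of the 49 members were under 10% of their wild-type mean, against 21.1% of all genes tested, and the median member was at 12.3%, beside 66.5% for all genes. In replicate 2, 0 members were under 10%, and the median member was at 47.4%, beside 46.9% for all genes.

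Among other genes of the cell cycle, from lists that share no member with the 49, the largest number of calls was among DNA replication genes. Of 25 such genes 7 fell between genotypes, against 4.43% of all genes, and 0 rose, against 10.6%. Their median log2 fold change in replicate 3 was -2.56, beside -0.22 over all genes. Cdt1, which licenses replication origins, had 133 to 151 CPM in the wild type and 24.7 and 14.1 CPM in the mutant replicates (log2 -2.32, edgeR adjusted p = 0.0138). Of 23 further mitotic kinesin and spindle genes 5 fell and 0 rose, among them Prc1 (log2 -1.72, edgeR adjusted p = 0.0121), which bundles microtubules of the central spindle. Of 17 condensin and cohesin genes 5 fell and 0 rose, among them the cohesin subunits Stag1 and Stag2 (log2 -1.71 and -1.31). Of 21 mitotic entry genes 3 fell and 0 rose, including Foxm1, an activator of G2 and mitosis genes (log2 -1.67), and E2f1 (-1.54). Of 20 other kinetochore and checkpoint genes 2 fell, Zw10 (-1.58) and Bora (-1.49), against 4.43% of all genes, and 0 rose, against 10.6%. Leaving out any wild-type library ended the calls of Zw10, Bora, Stag1, Stag2, Foxm1 and E2f1, and with the Xist class as a covariate none of these genes, Cdt1 and Prc1 was called. The replicate number as a block ended the calls of Zw10, Bora, Stag1, Stag2 and Foxm1.

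Among APC/C subunits and partners, and among quiescence genes, CDK inhibitors and G1 cyclins, the genes called between genotypes were higher. The lists as sums of plain CPM were lower. On that scale the median gene tested was at 46.9% of its wild-type mean in replicate 2 and 66.5% in replicate 3. On the TMM scale the median log2 fold changes in replicate 2 were -0.03 for the APC/C list and -0.43 for the quiescence list, beside -0.41 over all genes. Of 17 APC/C subunits and partners 3 rose and 0 fell, against 10.6% and 4.43% of all genes. The partners in this list, which are not subunits, were Fzr1, Ube2s and Fbxo5. In replicate 3 the median log2 fold change of this list was -0.83, beside -0.22 over all genes. Its sums in replicates 2 and 3 were 65.7% and 51.7% of the wild-type mean. The subunit gene Anapc16 stood at 45.1 to 58.7 CPM in the wild type and 105 and 106 CPM in the mutant replicates (log2 1.5, edgeR adjusted p = 0.0156). The quiescence list also holds the cyclins Ccnd1, Ccnd2 and Ccnd3, which drive the cycle. Of its 18 tested genes 3 rose and 0 fell, against the same 10.6% and 4.43%, with a median log2 fold change of -0.63. In replicate 3 the median of this list was -0.51, beside -0.22 over all genes. The list's sums in replicates 2 and 3 were 49.7% and 53.7% of the wild-type mean. Cdkn1a, the inhibitor p21, stood at 13.9, 16 and 20.9 CPM in the wild type, against 72.9 and 42.6 CPM in the mutant replicates (log2 2.33, edgeR adjusted p = 0.0159). Its higher value was in replicate 2, the library in which the mitosis genes were less reduced. Ccnd1, a G1 cyclin, was at 3.98 to 5.29 CPM in the wild type and 10.7 and 52.4 CPM in the mutant replicates (log2 3.24, edgeR adjusted p = 0.0197). Leaving out any wild-type library ended the call of Ccnd1, and leaving out wild-type replicate 1 that of Cdkn1a. The Xist class as a covariate ended the calls of all 3 genes named here, and the replicate number as a block that of Anapc16.

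As sums, markers of several cell types were, like the mitosis genes, lower in Tet2-mutant replicate 3 than in replicate 2. Their part in these results was not tested. Summed markers of neutrophil progenitors (9 genes) ranged from 13949 to 16489.8 CPM in the wild type and were 6905 and 3162 CPM in Tet2-mutant replicates 2 and 3. Of their most abundant genes, Mpo stood at 4545 to 7219 CPM in the wild type, against 1419 and 185 CPM in the mutant replicates. Chil3 changed less, from 4246 to 4980 CPM in the wild type to 4043 and 2523 CPM, with a log2 fold change of 0.08 between genotypes. The stem and progenitor list (8 genes) ranged from 255 to 346 CPM and was 218 and 64.4 CPM, with Myb at 111 to 168 CPM in the wild type and 38 and 5.45 CPM in the mutant replicates. Kit, from the same list, went the other way in replicate 2. It measured 29.4 to 56.9 CPM in the wild type, 76.5 CPM in replicate 2 and 16.2 CPM in replicate 3. The erythroid list (14 genes) ranged from 7931 to 19793 CPM and was 10566 and 1894 CPM. These lists thus stood, like the 49 genes, lower in replicate 3 than in replicate 2.

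Of the remaining lists, the macrophage, T and natural killer and pancreatic acinar sums were higher in the mutant replicates than in the wild type. The mature B sum was above the wild-type range only in replicate 3, and the monocyte sum only in replicate 2. The mature neutrophil sum was below that range in both mutant replicates, and the pro-B and pre-B sum stayed inside it. For the calls given below, the shares over all genes tested were 10.6% higher and 4.43% lower. All 9 macrophage genes rose, their sum going from between 643 and 795 CPM to 6061 and 6711 CPM. The macrophage list was thus alike in the mutant libraries while the mitosis genes differed. T and natural killer genes (4 of 8 called higher) summed to 278 to 362 CPM in the wild type and 882 and 897 CPM in the mutant replicates. The mature B list (3 of 7 higher) summed to 155 to 792 CPM, then to 695 CPM in replicate 2 and 6461 CPM in replicate 3. Pancreatic acinar genes (13 of 13 tested higher) summed to 47.4 to 65.0 CPM and then 548 and 1772 CPM, with Amy2a5 at 0 counts in all 5 libraries. The monocyte list summed to 15108 to 16984 CPM in the wild type and 20731 and 16795 CPM in the mutant replicates, with replicate 2 above every wild-type library, and 1 of its 7 genes was called in each direction. Most of that sum was Lyz2, at 13641 to 15519 CPM in the wild type against 19449 and 15997 CPM, while Ly6c2 stood at 409.6 to 579.7 CPM against 277 and 147 CPM. Mature neutrophil genes summed to 48089 to 63074 CPM and 37134 and 20632 CPM, and pro-B and pre-B genes to 31.4 to 242 CPM and 31.8 and 57.4 CPM, with 1 of 10 and 0 of 8 called lower.

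**Figure D5:**
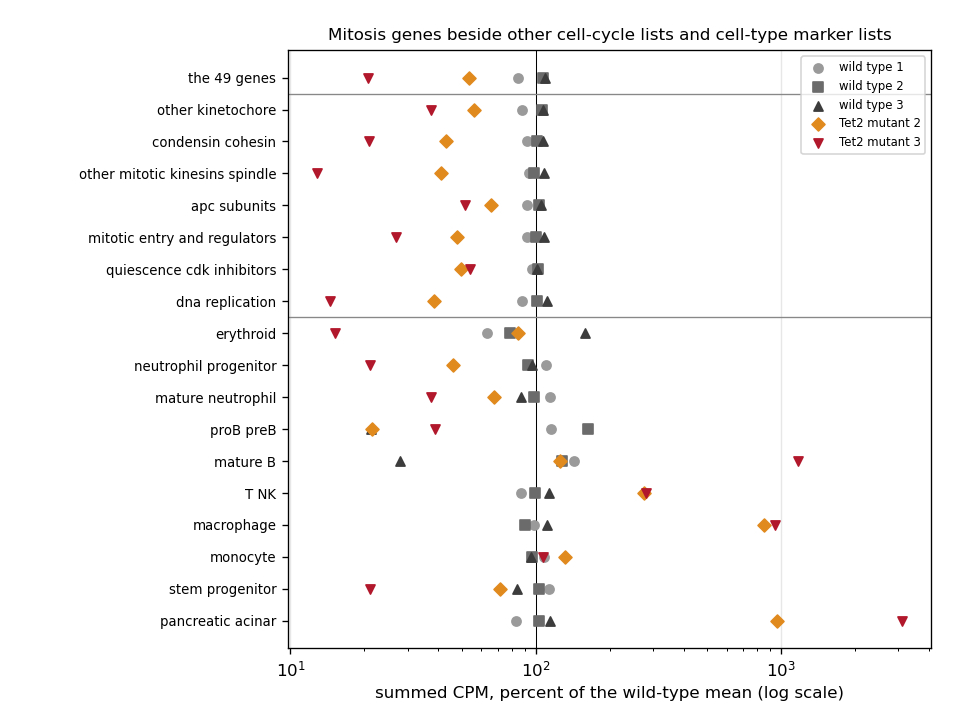
Summed CPM of the 49 genes, of other cell-cycle lists and of cell-type marker lists in each library, as a percentage of the wild-type mean on a log axis. The 49 genes stand at 53.3% and 20.7% in Tet2-mutant replicates 2 and 3, and the macrophage list at 850.1% and 941%.

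Within the wild type the 49 genes varied somewhat less than the typical gene. Their coefficient of variation ran from 1.62% (Top2a) to 31.0% (Ube2c), with a median of 14.1% beside 18.3% for all genes tested. For 41 of the 49 the lowest wild-type value was in replicate 1. Replicates 2 and 3, which differ in Xist and Y-linked transcripts, lay close together in sum at 8630.1 and 8833 CPM.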

How the data were processed

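Gene counts from 5 RNA-seq libraries were used as the authors deposited them, unnormalised whole numbers per gene symbol. Per the labels' protocols, RNA was prepared with an RNeasy kit and SMARTer mRNA-Seq libraries were made. The submitters' processing notes name Trimmomatic, STAR and mm10. Not given in the sources used here are tool versions, the counter, the annotation and the strand setting. No molecular identifiers are named, so errors treat amplified reads as independent.

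Levels are CPM of the plain library size. Fold changes come from edgeR 4.0.16 in R 4.3.3 (filterByExpr, TMM scaling, quasi-likelihood F-test, Benjamini-Hochberg adjustment over all 17062 tested genes, calls at 0.05), fitted to both groups and, separately, with each mutant library as its own group. The common biological coefficient of variation was 0.507. The SE is the absolute log2 fold change divided by the square root of F. Alternatives used limma 3.58.1 and DESeq2 1.42.0, other scaling and filters, the replicate number as a block, the Xist class as a covariate and each library left out. The test was checked on simulated data. Exon lengths and overlaps came from GENCODE M21 (GRCm38), matched for 16673 tested symbols.

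Members and lists were chosen with earlier results of these data known. All members could be named. Full statistics went to each called member, or in a complex with none called to the 2 smallest p, and to members above the wild-type mean in 1 mutant library and below it in the other. Each other list was represented by up to 2 called genes with the smallest p, and each marker list by its most abundant genes. Further members were described after their values were seen.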

Additional observations from a re-analysis of the deposited data

How the results depend on the processing

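The number of members called lower between genotypes was 4 and depended on the settings. It was 16 with upper-quartile factors, 19 with plain library size, 7 with DESeq2, 26 with limma-voom, 25 without a filter, 25 with the replicate block and 0 with the Xist class. Leaving out each library gave 0 to 43, and 0 to 2 for members called higher. Genes called lower, of 755, numbered 1837, 2877, 2137, 1365 and 1498 under upper-quartile factors, plain library size, DESeq2, limma-voom and no filter, 472 with at least 1 CPM in 3 libraries, 232 with the replicate block and 0 with the Xist class, and genes called higher, of 1801, numbered 1181 with plain library size, 2972 with DESeq2, 3059 without a filter, 752 with the replicate block and 101 with the Xist class. Single libraries left out gave 6 to 5958 lower and 616 to 4904 higher. The share of calls that were higher was 70.5%, and 43.6%, 29.1%, 57.4% and 58.2% under upper-quartile factors, plain library size, limma-voom and DESeq2. Against TMM, plain library size shifted the median of all genes by -0.51 and upper-quartile factors by -0.28. In Tet2-mutant replicate 2, the 10 members called lower became 28 with upper-quartile factors, 30 with plain library size, 16 without a filter and 18 at 1 CPM, and the 2 called higher became 0, 0, 3 and 1. With plain library size the members' median in replicate 2 was -1.08, beside -1.09 over all genes. Members with both mutant libraries below the wild type went from 43 to 27 with TMM. The causes were not tested.

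Complex medians with a library left out ran from -1.64 to 0.013 for the CCAN, -1.53 to -0.40 for CENP-A loading, -3.38 to -0.16 for the checkpoint and -3.49 to -0.70 for Mki67 and Top2a. Members whose direction changed with a library left out ran as follows: Aurka -2.72 to 0.072, Ccnb2 -2.66 to 0.0012, Cenpk -2.54 to 0.91, Cenpl -1.56 to 0.27, Cenpm -0.98 to 1.28, Cenpn -3.04 to 0.21, Cenpo -1.21 to 0.074, Cenpq -0.055 to 0.18, Cenpt -0.78 to 0.49, Dsn1 -3.45 to 0.34, Mis12 -1.39 to 0.73, Ndc80 -1.37 to 0.36, Oip5 -1.66 to 0.21, Spc25 -1.72 to 0.035, Ube2c -2.37 to 0.16 and Zwint -0.018 to 0.43. Otherwise Cenpk reversed to -0.42 with upper-quartile factors, -0.60 with plain library size, -1.45 with limma-voom, -0.0052 without a filter, -0.033 at 1 CPM, -1.03 with the replicate block and -0.21 with the Xist class. For Mis12 the same settings gave -0.38, -0.58, -0.71, -0.0049, -0.037, -0.43 and -0.17. Cenpm was -0.060 with plain library size, -0.24 with limma-voom and -0.054 with the replicate block, Cenpt 0.038 with RLE factors and 0.037 with DESeq2, Zwint -0.10 and -0.32 with upper-quartile factors and plain library size, and Bub3 -0.048 with plain library size. Of 882 values for single genes, 637 kept direction and call, 140 became called, 61 lost the call and 44 reversed.

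Replicate numbers 2 and 3 occur in both groups, and same-numbered libraries deviated with correlations of -0.03 and -0.02. With only 2 mutant libraries the paired correlations are tied to each other by construction. They therefore cannot show whether same-numbered libraries share more than a number.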
